A study of Homo sapiens with 20 samples.

Results

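The comparison described here sets LNCaP cells arrested in early S phase against LNCaP cells in a steroid-deprived control medium without added androgen. It uses 5 of the 20 arrays of the series (2 early S and 3 control arrays, chosen by their titles). LNCaP is an established human prostate cancer line whose growth and secretory genes respond to androgens. Early S cells were grown in hormone-proficient medium, had aphidicolin at 2 µg/mL for 24 h, and had 10 nM dihydrotestosterone (DHT), a potent natural androgen, for the last 3 h. Control cells, called CDT in the labels, spent 72 h in CDT medium and had ethanol for the last 3 h. Both groups are the same cell line, and they differ in drug, DHT and medium together, so what belongs to each of these cannot be told apart. The other groups used for reference were CDT + DHT (72 h of CDT medium and 10 nM DHT for 3 h, 3 arrays), late S (1 mM hydroxyurea for 24 h and DHT, 3 arrays), early G1 (0.5 µM PD0332991, 3 arrays), late G1 (5 µg/mL roscovitine, 3 arrays) and G2/M (15 h of aphidicolin, washout, then 9 h of nocodazole at 50 ng/mL, 3 arrays), the last 3 also with DHT for 3 h. The phases are those of the labels, and DNA content was not analysed here. The series asked which DHT-dependent transcripts vary with the phase of the cell cycle.

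Aphidicolin inhibits the replicative DNA polymerases, so that origins fire while the forks that follow them stall, and cells collect at the start of S phase. Stalled forks expose single-stranded DNA and recruit the kinase ATR, which activates CHK1, and prolonged arrest can also activate p53. The androgen receptor is a nuclear receptor that on binding DHT moves onto androgen response elements and switches on secretory genes such as the kallikreins, while a smaller set of genes is lowered. LNCaP cells are known for an intact androgen response and for wild-type p53.

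The deposited values were probe set intensities on a linear scale, with array medians of 7.24 and 7.25 in early S and of 7.65, 8.25 and 7.45 in CDT. Levels below are log2(intensity + 1), and differences are early S minus CDT on that scale, ± SE from a single limma fit over all 20 arrays and 18417 genes. The scale understates changes of dim genes, and the number of arrays limits the precision. Whether the replicates of a group came from separate cultures is not stated in the labels. The p-values therefore refer to the spread among these arrays, which may be technical. Across the 6434 brighter genes (mean intensity of 16 or more over the 20 arrays), the early S arrays correlated with each other at 0.752, and CDT replicates 2 and 3 at 0.856. CDT replicate 1 stood apart, at 0.665 and 0.633 with the other CDT arrays, and its lowest correlation was with early S replicate 2, at 0.466, which is below the correlation of that array with CDT replicate 2 (0.888). Several results are therefore also given without CDT replicate 1. The early S arrays were not closest to each other either. Early S replicate 1 correlated with CDT replicate 2 at 0.795, above its 0.752 with early S replicate 2. The 0.888 of early S replicate 2 with CDT replicate 2 was the highest value among these 5 arrays. The defining markers of prostate luminal cells were present in both groups. The keratin gene KRT18 lay at 6.97 and 6.20 in early S and at 5.83, 6.26 and 5.22 in CDT, and KLK3, the gene of prostate-specific antigen, reached at least 6.52 on each of these 5 arrays. ACP3, the prostatic acid phosphatase gene, was more variable, at 2.33 and 4.86 in early S and at 3.55, 6.56 and 6.48 in CDT.

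Few genes separated early S from CDT beyond the spread of the arrays, and the fit could miss large differences. In simulated arrays with the gene spreads of these data, it recovered 4% of genes changed by 2 log2 units. It recovered 30% of those changed by 3 and 58% of those changed by 4. A gene that did not pass may therefore still differ. With limma and Benjamini-Hochberg adjustment over all genes at 0.05, 2 genes rose (0.0109% of those tested) and 4 fell (0.0217%). An unadjusted p under 0.05 was found for 1026 genes (5.57%). Both early S arrays lay above all 3 CDT arrays for 2027 genes (11%) and below them for 2029 (11%). Among the 6434 brighter genes these shares were 14.7% and 9.06%. The division of the calls depended on the scaling. With arrays centred on their median 7 genes rose and 4 fell, and with arrays centred on ribosomal protein genes 2 rose and 13 fell, an alternative chosen after seeing the data that lowered the median of all genes by 0.57. With a pseudocount of 16 in place of 1, which gives less weight to dim genes, 13 rose and 10 fell. Without early S replicate 1 limma called 0 genes (803 at an unadjusted p under 0.05), and without CDT replicate 1 a single gene rose and 2 fell.

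SFN, which encodes 14-3-3 sigma, a p53-induced protein that holds mitotic kinases out of the nucleus, lay at 7.83 and 7.13 in early S and at 3.28, 3.75 and 1.23 in CDT. The groups were far apart, and the highest CDT array lay well below the dimmer early S array. SFN rose by 4.73 ± 0.66 (26.5-fold on the log2(intensity + 1) scale, limma adjusted p = 0.00618), and it passed in 14 of 17 alternative settings. SFN was dim in CDT, so the fold depends on the pseudocount, and with 16 the difference was 3.08. SFN did not pass without either early S array (adjusted p = 0.419 without replicate 1 and 0.0575 without replicate 2).

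S100P, a calcium-binding protein gene of the S100 family, was at 7.64 and 6.53 in early S and at 2.48, 3.59 and 0.07 in CDT. All early S values were high, while CDT ranged from near background to moderate. The rise was 5.04 ± 0.81 (32.8-fold on the log2(intensity + 1) scale, adjusted p = 0.0205), and S100P passed in 11 of 17 alternative settings. Here too the fold rests on dim CDT values, and with a pseudocount of 16 the difference was 2.87. S100P did not pass without early S replicate 1, early S replicate 2 or CDT replicate 1 (adjusted p = 0.587, 0.127 and 0.0716).

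Other genes lay higher in both early S arrays than in any CDT array without passing. CDKN1A, which encodes the CDK inhibitor p21, was at 8.43 and 8.54 in early S and at 5.36, 5.97 and 3.60 in CDT, a difference of 3.51 ± 0.66 (adjusted p = 0.09996). GNAI1, an inhibitory G protein alpha subunit, was at 6.11 and 7.25 against 1.36, 2.28 and 0.02 (5.47 ± 1.07, adjusted p = 0.125), a difference that falls to 2.74 with a pseudocount of 16, since CDT was near the floor. The early S arrays of CDKN1A were nearly equal, and the spread lay within CDT. FXYD3, a regulator of the sodium pump, was at 7.05 and 6.90 against 3.07, 4.48 and 2.63. ELOVL7, a fatty acid elongase, was at 6.29 and 7.50 against 1.63, 3.22 and 2.04, and the dim chemokine receptor gene CXCR2 at 3.69 and 2.91 against 0.00, 0.04 and 1.11. These differences were 3.58 ± 0.74 for FXYD3 (adjusted p = 0.157), 4.60 ± 1.02 for ELOVL7 (adjusted p = 0.210) and 2.92 ± 0.62 for CXCR2 (adjusted p = 0.172). TUBA3C, an alpha tubulin of a family with close copies whose probes were not checked for specificity here, was at 5.48 and 4.89 against 2.38, 2.54 and 1.63 (3.00 ± 0.60, adjusted p = 0.140). CDKN1A, GNAI1, FXYD3, ELOVL7 and TUBA3C all passed with a pseudocount of 16. In that order they passed in 5, 6, 5, 1 and 3 of 17 alternative settings.

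The 4 genes that fell were ACKR3, ZSWIM4, PPP2R5B and OR1G1. ACKR3, an atypical chemokine receptor that scavenges CXCL12, lay at 1.98 and 3.88 in early S and at 6.67, 6.93 and 6.38 in CDT. CDT was tight and early S was widely spread, with no overlap. ACKR3 fell by 3.73 ± 0.59 (13.3-fold, adjusted p = 0.0205). ZSWIM4, a SWIM zinc finger gene, was at 0.01 and 1.22 in early S and at 4.55, 4.59 and 4.40 in CDT (-3.90 ± 0.55, adjusted p = 0.00618). PPP2R5B, a regulatory subunit of the phosphatase PP2A, was at 1.50 and 1.22 against 4.99, 4.79 and 4.26 (-3.32 ± 0.57, adjusted p = 0.0369). For ZSWIM4 and PPP2R5B the early S values sit at the low end of the array's range, so the size of the fall depends on the pseudocount (-1.18 and -1.22 with 16). ACKR3 passed in 12 of 17 alternative settings, ZSWIM4 in 14 of 16 and PPP2R5B in 8 of 16. PPP2R5B passed with none of the 5 arrays left out (limma adjusted p from 0.0713 to 0.444).

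OR1G1, an olfactory receptor gene from a large family whose probes were not checked for specificity here, was listed at 0.00 and 0.02 in early S and at 5.68, 4.36 and 5.32 in CDT. The difference was -5.11 ± 0.60 (adjusted p = 0.00103), and with a pseudocount of 16 it was -1.66. Further genes lay below every CDT array without passing. VSTM2L was at 1.64 and 2.33 against 6.31, 5.93 and 5.41 (-3.90 ± 0.78, adjusted p = 0.139). The alpha tubulin TUBA1A was at 6.78 and 7.80 against 9.43, 9.44 and 9.34 (-2.11 ± 0.47, adjusted p = 0.210), a bright gene with nearly identical CDT arrays. VSTM2L and TUBA1A both passed with a pseudocount of 16 (-1.97 and -2.00, limma adjusted p = 0.0216 and 0.000886). Each passed in 5 of 17 alternative settings. The semaphorin SEMA4B (-3.24 ± 0.67), the carbonic anhydrase CA4 (-4.03 ± 0.85), the uridine phosphorylase UPP2 (-3.59 ± 0.76), FAM163A (-3.87 ± 0.84) and MADD (-3.56 ± 0.77) had adjusted p of 0.157 to 0.182.

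**Figure D1:**
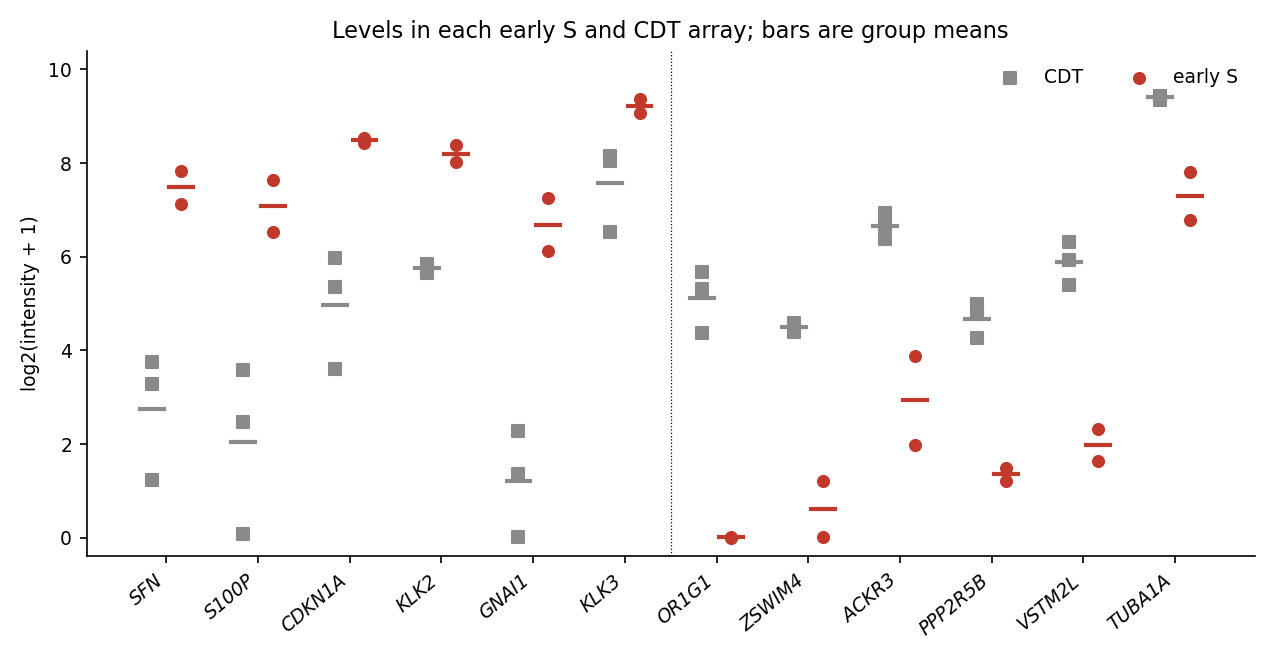
Levels of 12 genes, log2(intensity + 1), in the 2 early S arrays (red circles) and the 3 CDT arrays (grey squares); bars are group means. SFN, S100P, OR1G1, ZSWIM4, ACKR3 and PPP2R5B passed the test, and in none of the 12 genes do the groups overlap.

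The androgen-responsive genes include the kallikreins, neighbouring genes on chromosome 19 that encode secreted prostate proteases. Their promoters, the 250 bases before the RefSeq start (GRCh38.p14, plus strand, chr19:50873189-50873438 for KLK2 and chr19:50854665-50854914 for KLK3), are shown because both genes lay higher in early S and because they share sequence. The capitals mark a hexamer of the androgen response element, searched on both strands as AGAACA, as its variant GGAACA and as a further variant, AGTACA, of which no 2 can match at the same position of a strand.
KLK2: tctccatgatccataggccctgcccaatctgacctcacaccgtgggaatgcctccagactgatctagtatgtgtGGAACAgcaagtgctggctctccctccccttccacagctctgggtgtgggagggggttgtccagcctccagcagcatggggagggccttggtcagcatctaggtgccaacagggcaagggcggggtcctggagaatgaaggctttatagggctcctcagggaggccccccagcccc
KLK3: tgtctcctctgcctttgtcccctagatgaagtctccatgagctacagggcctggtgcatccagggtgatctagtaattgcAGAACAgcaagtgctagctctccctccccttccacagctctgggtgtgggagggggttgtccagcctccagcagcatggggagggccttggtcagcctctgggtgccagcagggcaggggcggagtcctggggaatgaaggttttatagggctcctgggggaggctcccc
The match starts at -176 in KLK2 and at -170 in KLK3, and the longest run that both promoters share is 80 bases. Such a hexamer is common. It was found in 30.6% of all 27305 promoters of 300 bases in the table and in 6 of the 25 promoters matched among the androgen-induced genes (24%), so a match describes these promoters and is not particular to them.

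KLK2 lay at 8.38 and 8.02 in early S and at 5.85, 5.66 and 5.75 in CDT. Both groups were tight and stood clearly apart. The difference was 2.45 ± 0.47 (5.47-fold, limma adjusted p = 0.100), which did not pass at a pseudocount of 1 and passed at 16 (2.17, limma adjusted p = 0.00044). KLK2 passed in 5 of 17 alternative settings. KLK3 lay at 9.06 and 9.37 in early S and at 6.52, 8.15 and 8.05 in CDT, where replicate 1 was far below the other arrays. Its difference was 1.64 ± 0.56 (adjusted p = 0.743), and 1.12 without CDT replicate 1.

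Among the androgen-induced genes (31 of 39 listed were tested), none passed over all genes, both early S arrays lay above all CDT arrays for 21 (67.7%), and for 2 they lay below. The background for a higher separation was 11% of all genes and 14.7% of the brighter ones. This list and those below were chosen with earlier results of these data known. A share above the background therefore describes a list and is not a test of it. The median difference of the list was 1.48, with 27 members above 0, beside 0.07 over all genes and 0.21 over the brighter ones. The mean of the list was 5.15 and 5.84 in the early S arrays and 3.63, 4.56 and 3.99 in CDT, so the early S arrays were the higher ones for the list as a whole. Without CDT replicate 1 the median was 1.20, and again 21 members stood above, when 16% of all genes did. It was 0.90 with a pseudocount of 16.

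The members of this list with wide differences have several roles. The kinase SGK1, which promotes survival and ion transport, was at 3.90 and 5.03 against 1.30, 2.47 and 0.02 (3.20 ± 0.78, adjusted p = 0.365), and the ubiquitin ligase gene HERC3 at 5.67 and 6.71 against 1.94, 3.96 and 3.39 (3.09 ± 0.75, adjusted p = 0.365). ELL2, a transcription elongation factor, was at 5.97 and 7.41 against 1.73, 4.23 and 3.40. The growth-arrest gene NDRG1 was at 6.43 and 7.14 against 2.98, 4.51 and 3.78. In all 4 genes the early S arrays were above CDT, and in 3 of them CDT replicate 1 was the lowest array. From CDT to CDT + DHT the mean went from 3.10 to 3.12 for HERC3 and from 3.76 to 4.96 for NDRG1. What belongs to DHT, drug or medium in these differences cannot be told apart. Differences of 1.82 to 2.32 were found for the transporter ABCC4 (2.32 ± 1.17), the kinase STK39 (2.30 ± 0.65), TIPARP (2.31 ± 0.80), the small GTPase RHOU (2.04 ± 0.68), PMEPA1, an inhibitor of TGF-beta signalling (1.94 ± 0.74), and the scaffold HOMER2 (1.82 ± 0.55). The 2 members below CDT on both arrays were the metalloreductase STEAP4, at 1.54 and 1.59 against 3.84, 2.49 and 1.90, and the transcription factor SPDEF, at 4.21 and 4.18 against 4.65, 4.81 and 4.47. FKBP4, a co-chaperone of steroid receptors, was at 8.14 and 7.90 against 8.23, 8.05 and 7.83 (-0.02 ± 0.47).

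Of 14 androgen-repressed genes tested, ACKR3 fell (above), and it is the single member of this list that passed. ACKR3 averaged 6.66 in CDT and 6.56 in CDT + DHT, a difference of -0.10 ± 0.53. In the other arrests its means were 4.23 (G2/M) to 5.44 (early G1). CAMK2N1, an inhibitor of the kinase CaMKII, was at 8.71 and 9.25 in early S and at 10.07, 10.11 and 10.01 in CDT (-1.08 ± 0.47), and PRAME, a tumour antigen that acts on retinoic acid signalling, at 3.99 and 4.58 against 4.69, 5.47 and 4.87 (-0.72 ± 0.59). The early S arrays lay below every CDT array for these 3 genes (21.4%, beside 11% of all genes and 9.06% of the brighter ones), and for HES6 they lay above. The median of the list was -0.56, and 5 of the 14 were above 0. Single arrays moved this median, to -0.16 without early S replicate 1, -0.99 without early S replicate 2, -0.90 without CDT replicate 1 and -0.31 without CDT replicate 2. Among 10 genes of receptor cofactors the median was -0.06 (-0.46 without CDT replicate 1, 0.30 without early S replicate 1). The pioneer factor GATA2, at 4.75 and 5.26 against 7.37, 6.97 and 6.50, stood lowest (-1.94 ± 0.57, limma adjusted p = 0.648). It passed in 1 of 17 alternative settings, a pseudocount of 16 (-1.56, limma adjusted p = 0.0450). The epithelial factor GRHL2 was at 5.76 and 6.38 against 3.19, 4.95 and 3.34.

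The p53 targets lay higher in early S as well. Of 30 members tested SFN rose, 11 stood above all CDT arrays (36.7%, beside 11% of all genes and 14.7% of the brighter ones) and 0 below, and the median difference was 0.80 with 26 members above 0. The list mean was 4.92 and 5.32 in early S and 3.59, 4.38 and 4.07 in CDT. TP53I3, a p53-induced oxidoreductase, was at 5.86 and 5.74 against 1.50, 3.62 and 2.53 (3.24 ± 0.68, adjusted p = 0.157). DDB2, a sensor of ultraviolet damage, was at 6.58 and 6.48 against 4.88, 4.84 and 4.61 (1.75 ± 0.49, adjusted p = 0.627), with tight arrays in both groups, and it passed with a pseudocount of 16. RRM2B, the p53-induced small subunit of ribonucleotide reductase, was at 3.03 and 4.71 against 1.06, 2.28 and 2.05, TIGAR, a brake on glycolysis, at 3.98 and 4.36 against 1.28, 3.49 and 1.81, and the translesion polymerase POLH at 5.37 and 5.05 against 3.44, 3.99 and 3.30.

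Other p53 targets overlapped between the groups. MDM2, the ubiquitin ligase that degrades p53, was at 5.02 and 7.06 in early S and at 2.15, 5.27 and 5.87 in CDT, a difference of 1.61 ± 0.93. GDF15, a secreted stress cytokine, was at 8.40 and 8.55 against 8.80, 7.48 and 7.53 (0.54 ± 0.50), with CDT replicate 1 the highest array. The death genes BBC3 (0.06 ± 0.56), FAS (0.20 ± 0.67) and BAX (0.65 ± 0.86) also overlapped. The sestrins SESN1 and SESN2 had differences of -0.16 ± 0.90 and -0.67 ± 0.67. Without CDT replicate 1 the list median was 0.66, without early S replicate 1 it was 1.33, and with a pseudocount of 16 it was 0.47.

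**Figure D2:**
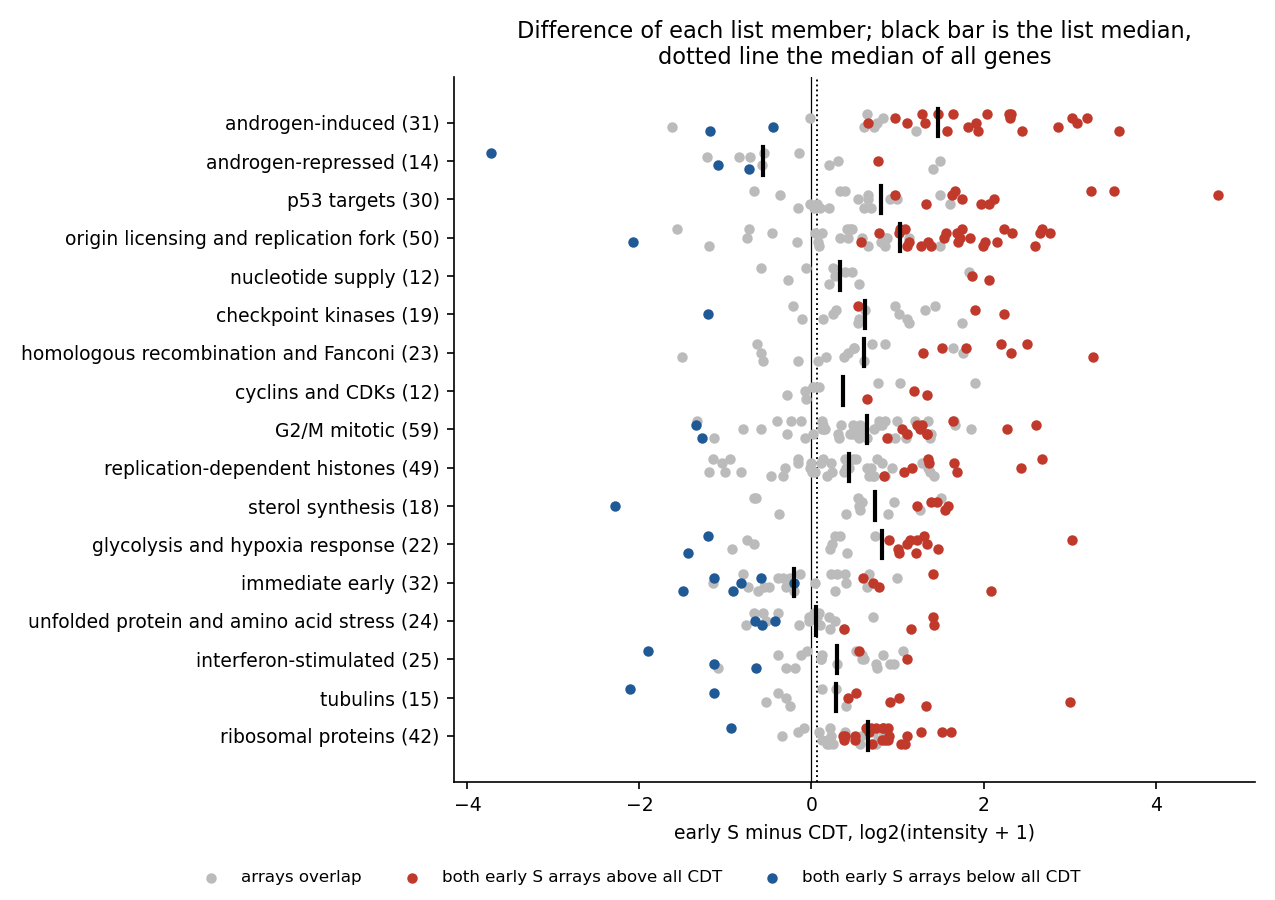
Difference of each member of 17 gene lists, early S minus CDT in log2(intensity + 1); red points are members with both early S arrays above all CDT arrays, blue points those with both below, and the number tested is in parentheses. The list median (black bar) is 1.48 for androgen-induced, 1.02 for licensing and fork and 0.80 for p53 targets, beside 0.07 for all genes (dotted line).

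Aphidicolin acts on the replication fork, and the genes that license origins and build the fork formed another list with many separations. None of the 50 members passed. For 26 (52%) both early S arrays lay above all CDT arrays, and for MCM5 they lay below. The background was 11% above and 11% below for all genes, and 14.7% and 9.06% for the brighter ones. The median difference was 1.02, with 43 members above 0, and the list mean was 4.84 and 5.53 in early S against 3.83, 4.78 and 4.15 in CDT. CDT replicate 1 was the lowest CDT array for 26 of the 50 members (52%), beside 37.2% of all genes. Without it the median was 0.83 and 28 members stood above (56%), when 16% of all genes did.

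Licensing begins with the origin recognition complex and CDC6, which load the MCM helicase. CDC6 was at 7.66 and 8.29 in early S and at 3.98, 6.21 and 5.42 in CDT (2.77 ± 0.76, adjusted p = 0.581). ORC1 was at 3.56 and 4.93 against 0.22, 3.02 and 2.52, and the licensing factor CDT1 at 4.24 and 3.78 against 3.17, 3.60 and 0.63. The early S arrays were the highest for all 3 genes, though for CDT1 by a narrow margin. The helicase subunits themselves differed among one another. MCM5 was at 5.21 and 4.07 against 7.65, 6.04 and 6.44 (-2.07 ± 0.76, adjusted p = 0.794), MCM2 at 7.46 and 7.75 against 7.59, 7.23 and 6.65 (0.44 ± 0.53), and MCM7 at 7.04 and 6.56 against 5.69, 6.31 and 5.31 (1.03 ± 0.76). CDC45, which joins the helicase at firing, was at 5.50 and 6.09 against 5.01, 4.83 and 4.28.

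At the fork, RFC proteins load the sliding clamp PCNA for the polymerases. RFC1, RFC2, RFC3 and RFC5 all stood above CDT, by 2.02 ± 1.09, 1.99 ± 0.70, 2.68 ± 0.90 and 1.85 ± 0.83, while RFC4 overlapped (0.04 ± 0.79). PCNA was at 6.74 and 8.16 in early S and at 5.94, 6.75 and 7.04 in CDT (0.87 ± 0.55), with overlap. POLA1, the catalytic subunit of the polymerase alpha that aphidicolin inhibits, was at 5.15 and 6.20 against 2.71, 4.73 and 4.49 (1.70 ± 0.69, adjusted p = 0.845). POLE, the leading-strand polymerase, was at 4.66 and 3.51 against 2.09, 3.00 and 0.69 (2.16 ± 0.67, adjusted p = 0.648). POLD1, the catalytic subunit of polymerase delta, was at 0.01 and 2.15 against 2.43, 3.39 and 2.08 (-1.56 ± 0.79), whereas its partners POLD2 and POLD3 stood above CDT (1.56 ± 0.63 and 1.72 ± 0.81). Of the 9 polymerase and primase genes listed, POLD1 and POLE2 had negative differences, both with overlapping arrays. Among the other members, CLSPN, an adaptor of the checkpoint kinase CHK1, was at 5.36 and 6.74 against 2.38, 4.68 and 4.38, and the nuclease DNA2 at 3.34 and 4.95 against 0.05, 2.39 and 2.05.

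Many fork genes are known targets of E2F factors, and 2 promoters are shown as examples of members above CDT that carry an E2F site before their start. They are the 250 bases before the RefSeq start (GRCh38.p14, plus strand), chr13:33817899-33818148 for RFC3 and chrX:24693668-24693917 for POLA1, with the site in capitals, searched on both strands as TTTGGCGC and TTTCCCGC, of which no 2 can match at the same position of a strand.
RFC3: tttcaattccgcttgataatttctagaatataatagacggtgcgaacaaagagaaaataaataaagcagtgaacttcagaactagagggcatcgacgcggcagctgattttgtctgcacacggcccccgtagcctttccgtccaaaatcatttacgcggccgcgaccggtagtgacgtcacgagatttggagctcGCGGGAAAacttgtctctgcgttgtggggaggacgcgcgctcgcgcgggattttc
POLA1: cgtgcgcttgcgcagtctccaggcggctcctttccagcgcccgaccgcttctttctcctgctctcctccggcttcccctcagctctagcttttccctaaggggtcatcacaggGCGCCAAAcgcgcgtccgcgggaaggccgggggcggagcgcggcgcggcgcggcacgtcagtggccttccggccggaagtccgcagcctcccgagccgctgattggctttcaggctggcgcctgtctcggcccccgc
In both the match is on the minus strand, from -55 to -48 in RFC3 and from -137 to -130 in POLA1. Within the 300-base windows a site was found in 16 of the 42 fork promoters matched (38.1%) and in 2.31% of all promoters. Members with and without a site had similar values. Of the 16 with a site 9 stood above CDT with a median of 0.95, and of the 26 without one 14 did, with a median of 1.05.

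**Figure D3:**
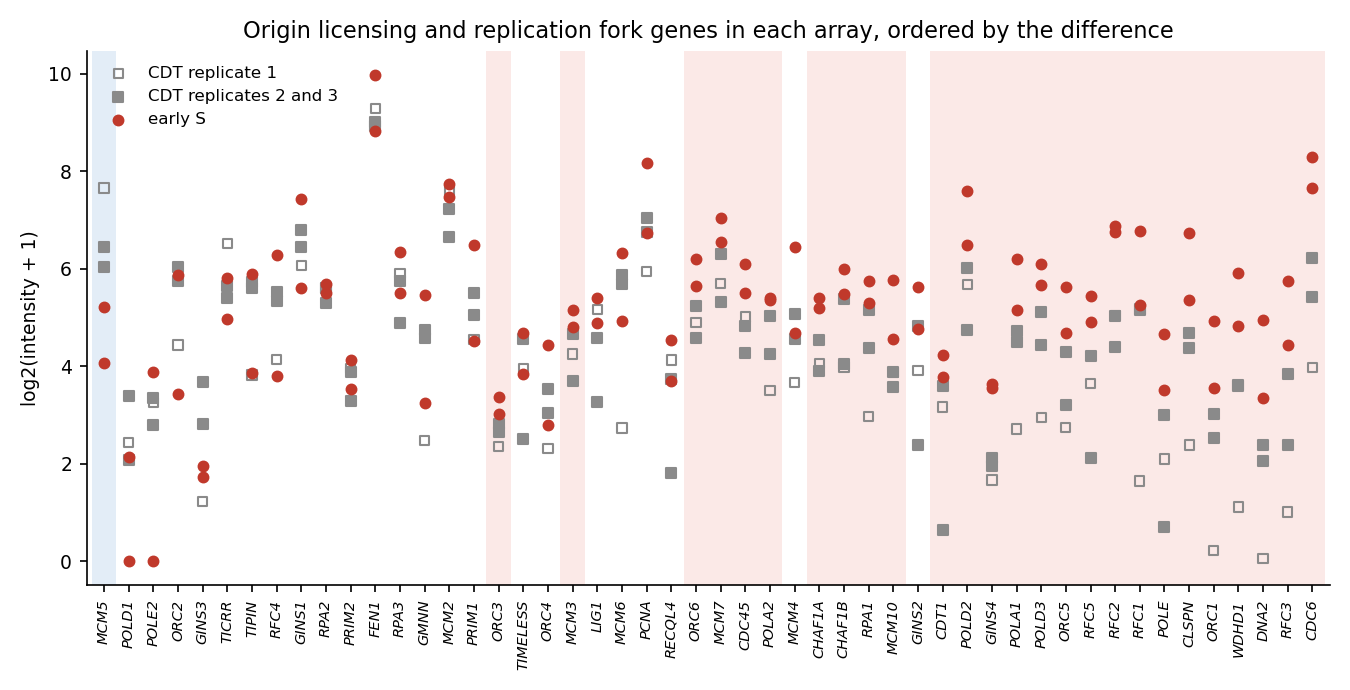
Levels of the 50 origin licensing and replication fork genes, log2(intensity + 1), in each early S array (red) and CDT array (grey squares, replicate 1 open), ordered by the difference. Pink bands mark the 26 genes with both early S arrays above all CDT arrays and the blue band MCM5, with both below.

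Genes of nucleotide supply, checkpoint signalling and fork repair showed fewer separations. The shares above CDT were 16.7% for nucleotide supply and 15.8% for checkpoint genes, near the 14.7% of the brighter genes. Over all genes 11% stood above and 11% below. RRM2, the S-phase subunit of ribonucleotide reductase, was at 7.30 and 7.91 in early S and at 5.47, 6.07 and 5.68 in CDT, with tight groups (1.87 ± 0.54, limma adjusted p = 0.648). It passed in 1 of 17 alternative settings, a pseudocount of 16. The large subunit RRM1 was at 6.85 and 8.40 against 3.55, 6.90 and 6.92, and thymidylate synthase TYMS at 7.20 and 8.61 against 7.42, 7.76 and 7.35, both with overlap. Over the 12 genes of nucleotide supply 2 stood above CDT and the median was 0.33, which became 0.90 without early S replicate 1, -0.013 without early S replicate 2 and 0.60 without CDT replicate 2. Among 19 checkpoint genes, with a median of 0.62 that ranged from 0.20 without early S replicate 2 to 1.18 without early S replicate 1 (0.32 without CDT replicate 1), 3 stood above, CLSPN, the ATR activator TOPBP1 (1.91 ± 1.25) and the damage kinase ATM (0.54 ± 0.71). The phosphatase CDC25A, which is degraded when the checkpoint is active, stood below at 1.61 and 2.92 against 3.59, 3.41 and 3.40 (-1.20 ± 0.68). CHEK1, the gene of CHK1, was at 4.95 and 6.24 against 2.73, 4.96 and 4.77 (1.44 ± 0.77), and HUS1, part of the clamp that senses damage, at 4.35 and 5.69 against 1.38, 4.41 and 4.03 (1.75 ± 0.78). In the homologous recombination and Fanconi list 7 of 23 stood above (30.4%) and 0 below, with a median of 0.62 (1.101 without early S replicate 1, 0.43 without CDT replicate 1). The helicase BRIP1 was at 2.84 and 4.44 against 0.12, 0.97 and 0.00 (3.27 ± 1.05, adjusted p = 0.667), the nuclease EXO1 at 4.39 and 4.76 against 0.01, 3.30 and 2.90, and BRCA1 at 3.73 and 2.07 against 0.65, 1.08 and 0.01. FANCG was at 5.56 and 4.94 against 3.69, 4.12 and 1.35 (2.20 ± 0.84, adjusted p = 0.797).

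Several cyclin genes overlapped between early S and CDT. The mitotic cyclin CCNB1 was at 6.77 and 7.43 in early S and at 6.46, 7.71 and 7.09 in CDT (0.01 ± 0.53), and the S-phase entry cyclin CCNE1 at 4.39 and 4.07 against 4.53, 4.01 and 4.09 (0.02 ± 0.67). CCND1, cyclin D1, was at 5.27 and 7.06 against 5.33, 7.02 and 6.99 (-0.28 ± 0.79). CCNE2 was at 4.58 and 5.43 against 3.15, 4.37 and 3.92 (1.20 ± 0.76), the mitotic kinase CDK1 at 4.23 and 5.96 against 3.46, 4.08 and 3.70 (1.35 ± 0.89), and CCNA2, which drives S phase, at 3.86 and 5.78 against 0.25, 4.78 and 3.73 (1.90 ± 1.36). The activator E2F1 stood above CDT at 5.70 and 5.17 against 3.76, 4.57 and 4.10 (1.29 ± 0.65), as did its repressor relative E2F8 (2.03 ± 0.85). Of the E2F and RB family 2 of 13 stood above (15.4%), and of the cyclins and CDKs 3 of 12 (25%), with 9 of the 12 above 0. The background was 11% of all genes and 14.7% of the brighter ones. Of the 7 CDK inhibitors CDKN1A alone stood above (14.3%). CDKN2A, the p16 gene, was at 0.05 and 1.47 against 3.20, 3.24 and 1.02 (-1.72 ± 0.91).

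Of the 59 mitotic genes 11 stood above CDT (18.6%) and 2 below, with a median of 0.64 that became 1.12 without early S replicate 1, 0.24 without early S replicate 2 and 1.12 without CDT replicate 2. The share above is near the 14.7% of the brighter genes. The kinetochore gene SPC24 was at 6.55 and 5.95 against 4.86, 4.28 and 2.80 (2.27 ± 0.72, adjusted p = 0.653), and the chromokinesin KIF4A at 4.74 and 4.85 against 0.10, 4.13 and 2.33 (2.61 ± 0.98). The mitotic kinase PLK1 was at 5.24 and 5.38 against 6.11, 6.24 and 5.35 (-0.59 ± 0.61), and the proliferation marker MKI67 at 3.37 and 5.40 against 2.21, 3.93 and 3.72, both with overlap. ASPM, a spindle pole gene, and FZR1, a cofactor of the ubiquitin ligase APC/C, were the 2 below. Their promoters differ from those of the fork genes: a cell cycle homology region, searched on both strands as TTTGAA and TTCGAA, was present in 38 of 51 matched mitotic promoters (74.5%), in 1 of 42 fork promoters (2.38%) and in 16.6% of all promoters.

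Replication-dependent histone genes, which are transcribed as DNA is made, had a median of 0.44 over 49 members, with 9 above CDT (18.4%) and 0 below. The share above is near the 14.7% of the brighter genes, and over all genes 11% stood above and 11% below. The early S arrays disagreed here. Replicate 2 was above replicate 1 for 7 of the 49 members (14.3%), when it was for 51.4% of all genes, and the median was 1.12 without replicate 2 and 0.00 without replicate 1. H4C3 was at 11.15 and 9.52 in early S and at 9.01, 9.28 and 9.19 in CDT (1.17 ± 0.58). The dim genes H3C8, at 2.65 and 2.24 against 0.01, 0.02 and 0.01, and H4C16, at 4.56 and 3.40 against 1.41, 1.26 and 1.24, had the smallest p of the list (adjusted p = 0.648 and 0.729). SLBP, which binds the stem-loop of histone mRNA, was at 7.42 and 7.92 against 6.36, 6.99 and 6.42 (1.08 ± 0.57).

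Among metabolic genes none passed. The background for a separation from CDT was 11% above and 11% below for all genes, and 14.7% and 9.06% for the brighter ones. Of 22 genes of glycolysis and the hypoxia response 11 stood above CDT (50%) and 2 below, with a median of 0.82. The glycolytic enzymes TPI1 (9.84 and 9.03 against 8.16, 8.81 and 7.41), ENO1 (7.92 and 7.67 against 6.41, 7.15 and 6.18), GPI and GAPDH were among those above, by 1.31 ± 0.59, 1.22 ± 0.59, 1.34 ± 0.65 and 0.90 ± 0.49, whereas HK2, the inducible hexokinase, stood below at 0.69 and 2.39 against 3.11, 2.59 and 3.22. Among 18 sterol synthesis genes 5 stood above and the median was 0.74, which became 0.31 without CDT replicate 1, 0.30 without early S replicate 2, 1.12 without early S replicate 1 and 1.31 without CDT replicate 2. The isomerase EBP was at 9.88 and 9.08 against 7.85, 8.06 and 7.77 (1.58 ± 0.46, limma adjusted p = 0.648). It passed in 2 of 17 alternative settings, a pseudocount of 16 and trended and robust eBayes. The synthase FDPS was at 7.83 and 7.01 against 5.84, 6.34 and 5.42 (1.55 ± 0.57), while lanosterol synthase LSS stood below at 0.02 and 1.39 against 2.75, 3.03 and 3.19 (-2.28 ± 0.84, adjusted p = 0.794). In fatty acid synthesis ELOVL7 (above), ELOVL5 (2.36 ± 0.93) and FASN (1.51 ± 0.64) were the 3 of 13 above CDT. In polyamine synthesis the 4 of 10 above were ODC1, its inhibitor OAZ1, SRM and the acetyltransferase SAT1, by 0.80 to 1.05.

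Stress and signalling lists held members on both sides of CDT. The medians were 0.05 for the unfolded protein and amino acid stress genes (4 of 24 above CDT, 3 below), -0.20 for immediate early genes (5 of 32 above, 6 below), 0.11 for NF-kB and inflammatory genes (6 of 21 above, 2 below), 0.29 for interferon-stimulated genes (2 of 25 above, 3 below), -0.01 for NRF2 and oxidative stress genes (1 of 13 above, 2 below) and 0.22 for the BCL2 family (1 of 15 above, 1 below). Beside the 11% of all genes above and 11% below CDT, and the 14.7% and 9.06% of the brighter genes, most of these counts are near the background. Without CDT replicate 1 the medians were -0.24 for the unfolded protein list, -0.05 for immediate early genes and 0.39 for NF-kB genes. IER3, a stress-induced survival gene, was at 4.93 and 5.13 in early S and at 3.17, 3.34 and 2.32 in CDT (2.09 ± 0.64, limma adjusted p = 0.648). It passed in 1 of 17 alternative settings, a pseudocount of 16. NFKBIA, the inhibitor of NF-kB, was at 8.07 and 8.17 against 7.27, 7.12 and 6.83 (1.05 ± 0.46), and ATF3, a stress transcription factor, at 3.86 and 4.48 against 2.73, 3.32 and 2.23 (1.41 ± 0.61). BCL2L1, the survival gene of BCL-XL, was the BCL2 family member above CDT, at 5.40 and 5.77 against 3.32, 4.67 and 4.32 (1.49 ± 0.62). The antioxidant genes HMOX1 and SRXN1 stood below, by -0.91 ± 0.56 and -0.87 ± 0.46. Among 15 tubulins, 6 stood above (40%) and 2 below (13.3%), TUBA1A and TUBB4A.

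Ribosomal protein genes, which every cell uses, lay higher in early S too. Of 42 ribosomal protein genes tested, 23 stood above CDT (54.8%, beside 11% of all genes and 14.7% of the brighter ones) and RPL32 below. The median was 0.65, and the list mean was 9.82 and 9.83 in early S and 9.07, 9.63 and 9.09 in CDT. No member passed (RPS9 at 1.63 ± 0.58 had the smallest p, limma adjusted p = 0.774). With arrays centred on these genes the medians were 0.91 for androgen-induced, 0.24 for p53 targets, 0.46 for licensing and fork, 0.25 for glycolysis, 0.17 for sterol synthesis and 0.07 for mitotic genes, each lower by that same shift of 0.57. The centring subtracts the same amount from every gene, so any list with a median below that shift turns negative, and so does the median of all genes (-0.50). Without CDT replicate 1 the ribosomal median was 0.43. The part of this shift in the lists above was not tested.

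Markers of other cell types were mostly dim, with overlapping list means. The list means were 3.19 and 3.14 in early S and 2.89 to 3.52 in CDT for 6 basal epithelial markers, 3.23 and 3.08 against 3.04 to 3.75 for 9 stromal markers, 2.70 and 2.86 against 2.64 to 3.01 for 6 leukocyte markers, and 3.31 and 2.72 against 3.20 to 3.47 for 9 neuroendocrine markers. Of these 30 markers 2 stood above CDT, ACTA2 (1.89 ± 0.83) and CD68 (1.80 ± 0.89), and 6 below, the largest difference being that of CD14 (-1.34 ± 0.61). Those below include 3 of the 9 neuroendocrine markers (33.3%, beside 11% of all genes). ENO2 was among them and was not dim, at 5.04 and 5.09 in early S and at 6.39, 6.50 and 5.91 in CDT (-1.20 ± 0.65). CD68 was at 5.22 and 5.05 in early S. PTPRC, the pan-leukocyte marker, lay at 2.11 and 2.65 in early S. Both groups are the same cell line, so these markers do not count cells of other types. In bulk RNA, fewer cells that express a gene and less of its RNA per cell cannot be told apart.

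The levels of the leading genes in the other groups show where early S differs and where it does not. SFN had means of 8.30 in late S and 6.44 in G2/M, near the 7.48 of early S, and of 4.49 in CDT + DHT, 3.88 in early G1 and 1.16 in late G1. The same 3 groups were the highest for CDKN1A, with means of 8.85 in late S, 8.49 in early S and 7.73 in G2/M, and of 5.21 to 6.43 in the other DHT groups. KLK2 lay between 7.88 and 8.72 on average in every group that had DHT, and at 5.75 in CDT. Against the mean of the other arrests KLK2 in early S differed by -0.17 ± 0.39, with an adjusted p of 0.966.

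Early S was tested directly against the groups that had DHT, in comparisons that share the 2 early S arrays with the main one. Against CDT + DHT 1 gene fell (0.00543%) and 0 rose, with limma, and 1404 genes had an unadjusted p under 0.05 (7.62%). Against the mean of the other arrests 0 genes rose and 0 fell, and 714 had an unadjusted p under 0.05 (3.88%). Against late S 1 gene fell (0.00543%) and 0 rose, with 1077 at an unadjusted p under 0.05 (5.85%). The gene that fell in both was OR1G1 (-4.24, adjusted p = 0.0159 against CDT + DHT, and -4.53 ± 0.60, adjusted p = 0.00629 against late S). ACKR3 differed from CDT + DHT by -3.63 (adjusted p = 0.0600), without passing. RRM2 was above the mean of the other arrests by 2.26 ± 0.45 (adjusted p = 0.512), with means of 7.61 in early S, 7.14 in G2/M, 6.63 in late S, 4.69 in early G1 and 2.94 in late G1.

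**Figure D4:**
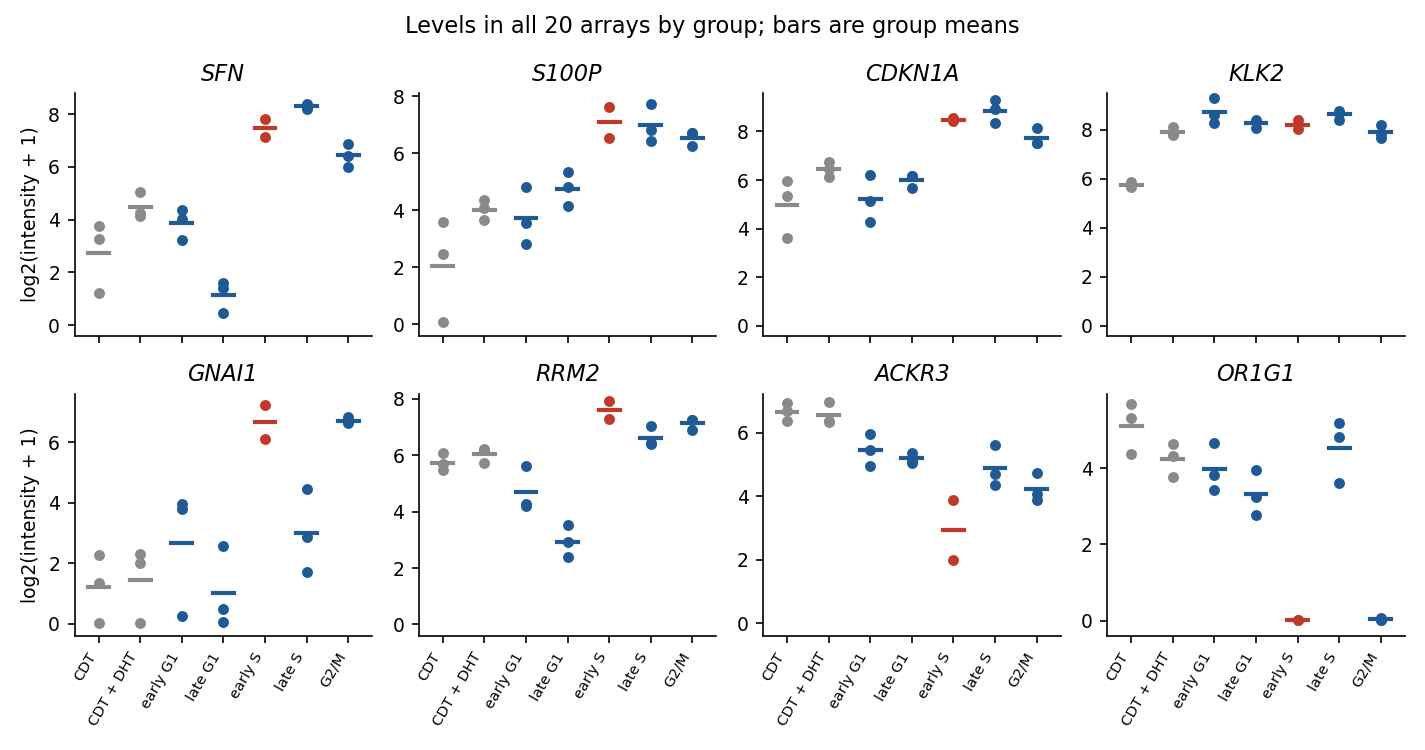
Levels of 8 genes, log2(intensity + 1), in all 20 arrays by group, with early S in red, CDT and CDT + DHT in grey and the other arrests in blue; bars are group means. KLK2 is lowest in CDT, and OR1G1 is near 0 in early S and G2/M.

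Between CDT + DHT and CDT limma called 0 genes, and 1263 had an unadjusted p under 0.05 (6.86%). Androgen-induced genes had a median difference of 1.01 between early S and CDT + DHT and of 0.34 between CDT + DHT and CDT, 2 comparisons that share CDT + DHT arrays with each other and other arrays with the main one. For the licensing and fork genes these medians were 0.62 and 0.04, and for p53 targets 1.17 and -0.02. The glycolysis list had medians of -0.04 against CDT + DHT and 0.76 for CDT + DHT over CDT, and the ribosomal proteins 0.05 and 0.49. For all genes the corresponding medians were 0.06 and -0.10. Against late S the median was 0.57 for fork genes, 0.56 for androgen-induced genes and -0.30 for p53 targets. None of the members of these lists passed in these comparisons, with limma. In the arrays, the p53 list mean was 4.34, 5.77 and 5.41 in late S and 4.79, 4.91 and 4.93 in G2/M. The fork list mean was 3.73, 3.56 and 3.67 in late G1. It was 5.01, 3.77 and 5.03 in early G1, 3.70, 5.385 and 4.69 in late S and 4.87, 5.205 and 4.78 in G2/M, beside 4.84 and 5.53 in early S. A high fork list mean was therefore not particular to early S.

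**Figure D5:**
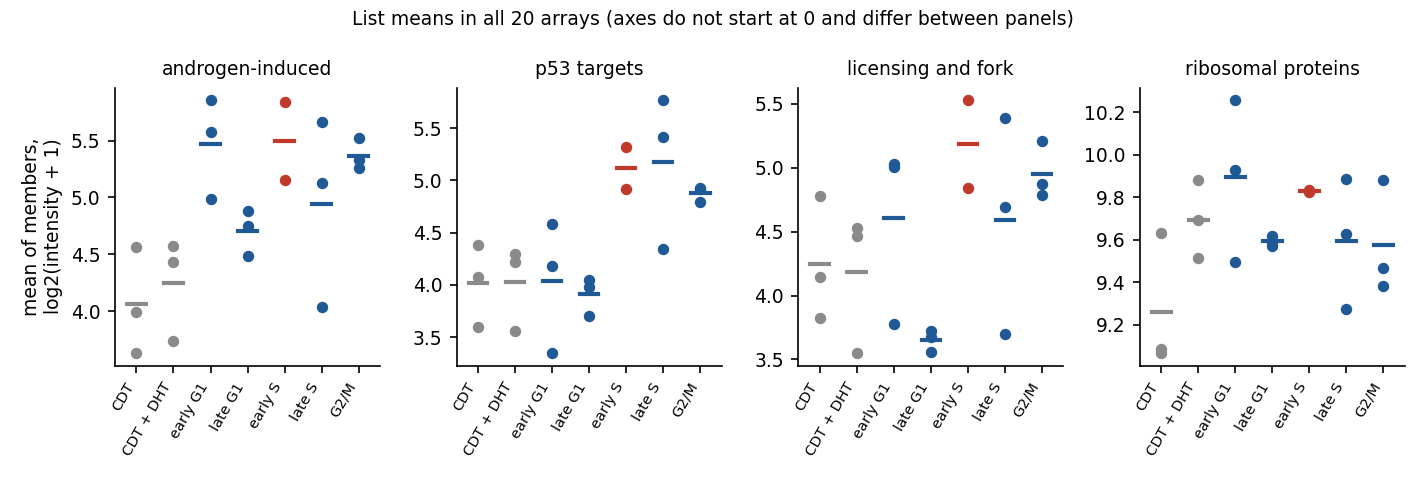
Mean of the tested members of 4 lists, log2(intensity + 1), in all 20 arrays by group; bars are group means. The 2 early S arrays (red) lie above the 3 CDT arrays for each list, and early G1 replicate 2 and late S replicate 1 lie below the other arrays of their groups in the first 3 panels.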

How the data were processed

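RNA of LNCaP cells was measured on 20 Affymetrix arrays, and the 5 early S and CDT arrays were compared here. The deposited value table holds the authors' probe set intensity on a linear scale, with no value at or below 0. Per the submitters' processing notes it came from Affymetrix Expression Console 1.1, and how probes were summarised and normalized is not given in the sources used here. If normalization made the arrays alike, a shift of all RNA would not show. The deposited intensities were turned into log2(intensity + 1).

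Of 33297 features, 21214 are listed in the platform annotation, 19460 with 1 gene symbol, 1754 with several and 12083 not listed. Of those with 1 symbol 19429 matched a RefSeq gene. For the 769 genes with several features the one with the highest mean was used, giving 18417 genes. No 2 arrays held identical values. limma 3.58.1 in R 4.3.3 (lmFit, eBayes) was fitted over all 20 arrays, with Benjamini-Hochberg adjustment and a threshold of 0.05, and the code was tested on simulated data. Figures were drawn with matplotlib 3.10.9 in Python 3.11.15. Promoters are from RefSeq, GRCh38.p14.

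Named genes were those that passed, filled to 10 in each direction by p-value among genes with no overlap, 2 or more members of each list by p-value or role, a set list of cell-cycle and androgen genes, and the 5 genes of smallest p in each direction in the further comparisons. Other members were named for their role. The gene lists and members were chosen with earlier results of these data known. Alternatives were a pseudocount of 16, quantile normalization, median and ribosomal centring, filters on dim genes, other choices of feature, eBayes options, array weights, a replicate block, fewer groups in the fit, and each array left out.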

Additional observations from a re-analysis of the deposited data

Results flagged for a closer look

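OR1G1, the olfactory receptor gene that fell against CDT, also differed between the S phase arrests. The early S minus late S difference was -4.53 ± 0.60 (limma adjusted p = 0.00629), with both groups set against the same CDT arrays, which cancel in it. OR1G1 lay at 0.00 and 0.02 in early S and averaged 4.54 in late S. It averaged 0.03 in G2/M, the other group that had aphidicolin, and 3.33 to 5.12 in the remaining groups. The sequence specificity of its probes was not tested.

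When every feature was tested, 2 features listed with several gene symbols, which were left out of the gene comparison, passed as well. They hold identical values, and early S was above CDT by 4.20 ± 0.58 (7.09 against 2.89, limma adjusted p = 0.00794).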

How the results depend on the processing

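Against CDT, 2 genes rose and 4 fell. The counts were 13 and 10 with a pseudocount of 16, 7 and 4 with median-centred arrays, and 8 and 7 with a filter on genes dim in both groups. They were 7 and 5 with trended and robust eBayes, and 0 and 0 in a fit limited to the compared groups (979 genes at an unadjusted p under 0.05). With every feature tested 4 features rose and 3 fell. Of those 4, 2 are the features with several symbols and identical values described above. Chosen after seeing the data, a filter on genes dim over all arrays gave 8 and 3, and ribosomal centring 2 and 13. Leaving out 1 array gave 0 to 2 genes that rose and 0 to 3 that fell. No gene fell or rose without early S replicate 1 (limma, 803 at an unadjusted p under 0.05), and a lone early S array is assumed to vary like the other groups.

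Against CDT + DHT the 1 gene called became 15 with a pseudocount of 16, 3 with quantile normalization or median centring, 4 with the dim filter, 10 with trended eBayes, 15 with array weights, 0 with only the compared groups (1805 at an unadjusted p under 0.05) and 0 to 1 with an array left out. Against late S the 1 gene became 4 with a pseudocount of 16, 2 with the dim filter, 3 with trended eBayes, 2 with array weights, 0 with only the compared groups (507 unadjusted) and 0 to 2 with an array left out. Against the other arrests 0 became 3 with a pseudocount of 16 and 1 with the dim filter, and stayed 0 with any array left out (limma, 426 to 961 unadjusted). The cause of these differences was not tested.

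The replicate numbers are shared between the groups, but nothing in the labels ties equal numbers to a common culture or day. With 2 pairs, the deviations of same-numbered arrays correlated at 0.674 and 0.46, values constrained by there being 2 early S arrays. Among pairs of unequal number, early S replicate 2 with CDT replicate 3 was at 0.545, above the 0.46. The others were at -0.46, -0.545 and -0.674, so the values do not decide whether equal numbers are pairs. With the replicate number as a block 1 gene rose and 4 fell, and S100P had an adjusted p of 0.0513 (limma).

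The small list medians depend on single arrays. Without early S replicate 1 the median was -0.63 for CDK inhibitors and -0.35 for tubulins, against 0.21 and 0.28 with all arrays. For leukocyte markers it ranged from -0.44 without CDT replicate 3 to 0.10 without early S replicate 2. Neuroendocrine markers went from -0.19 to 0.31 with either filter on dim genes. Ribosomal centring lowers every gene by 0.57, so medians below that turn negative by construction, as for fatty acid synthesis (-0.091), polyamine synthesis (-0.16) and interferon-stimulated genes (-0.27). The filters on dim genes raised the median of all genes by 0.16 and 0.15.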
